A study of Mus musculus with 6 samples.

Results

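The integrated stress response was followed in mouse liver tumour cells through 10 genes: Atf4, Atf5, Atf3 and Ddit3, the C/EBP partners Cebpb and Cebpg, and the regulators or targets Trib3, Nupr1, Chac1 and Asns. They were chosen by name, with earlier results for the same comparison known, and all 10 are among the 11866 genes listed and the 10770 tested. Their differences between the groups are therefore a description. Adjusted p-values are given to show where each gene stood in the fit over all tested genes, and support nothing about the set.

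The KD group held 3 libraries of HCC3-4 cells stably transfected with a hairpin against Sf3b3, and the PLKO group held 3 libraries of the same line with the empty control vector pLKO.1-TRC. HCC3-4 is a tumour line that comes from MYC transgenic mice, so both groups share that origin. Sf3b3 encodes a subunit of SF3b, the spliceosome complex that recognises the branch point of introns, and the series concerns its part in splicing the bile acid receptor FXR. One hairpin construct is named in the labels, so its other effects cannot be told apart from those of lower Sf3b3, and separate cultures are not stated for the replicates, so the p-values measure a spread that may be technical. Sf3b3 had 10.3, 9.56 and 13.9 FPKM in KD 1, 2 and 3, against 22.6, 28.7 and 29.2 FPKM in PLKO 1, 2 and 3. The KD libraries lay below all PLKO libraries.

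FPKM are read levels scaled by gene length and by library depth, and are powers of 2 of the deposited log2 values. Each library held between 15140441 and 17566101 reads on listed genes. Hepatocyte markers were nearly absent: of 8 looked up, 1 was listed, Afp, at 0.814 to 1.98 FPKM in KD and 0.302 to 0.467 FPKM in PLKO, and of 4 epithelial markers the keratins Krt8 and Krt18 were listed, and Cdh1 and Epcam were not. Krt8 had 42.2 to 76.5 FPKM in KD and 53.4 to 79.7 FPKM in PLKO, and Krt18 had 8.41 to 9.60 FPKM in KD and 5.27 to 6.62 FPKM in PLKO, with all KD libraries above all PLKO libraries (limma adjusted p = 0.10). Among 7 leukocyte markers only Cd68 was listed, and it had 44.4 to 95.0 FPKM in KD and 9.19 to 42.1 FPKM in PLKO. All its KD libraries lay above all its PLKO libraries (limma adjusted p = 0.0755). With libraries of equal number taken as pairs, which the labels do not state, the limma adjusted p was 0.0018 for Cd68 and 0.069 for Krt18. That fit called 882 of 10770 tested genes higher. The share of tested genes with all KD libraries above all PLKO libraries is not given here. Of 4 bile duct markers 3 were listed, and their groups overlapped. Sox9 had 57.5 to 63.0 FPKM in KD and 50.8 to 75.1 FPKM in PLKO. Spp1 had 70.7 to 184 FPKM in KD and 55.0 to 176 FPKM in PLKO. Krt19 was at or below 13.1 FPKM in KD and 5.87 FPKM in PLKO. Of 6 fibroblast and stellate markers 4 were listed, with summed levels of 25.6 to 43.2 FPKM in KD and 56.7 to 82.0 FPKM in PLKO. Nearly all of this was Pdgfrb, at 24.6 to 41.2 FPKM in KD and 54.3 to 79.3 FPKM in PLKO. Its KD libraries lay below all its PLKO libraries, as in 18.8% of tested genes. Its limma adjusted p was 0.064, and 0.0115 with the pairs, where 11.1% of tested genes were called lower. Col1a1, Col1a2 and Des were at or below 1.08 FPKM in KD and 1.58 FPKM in PLKO, and none of 4 endothelial markers was listed. The part of these markers in the results below was not tested.

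When cells run short of amino acids, misfold proteins in the endoplasmic reticulum or lose mitochondrial function, kinases phosphorylate the translation factor eIF2alpha. General translation falls, while the mRNAs of ATF4, ATF5 and CHOP (the product of Ddit3), which carry upstream open reading frames, are translated better. ATF4 protein then forms dimers with C/EBP factors and switches on genes of amino acid supply, so the mRNA level of Atf4 alone does not give the amount of its protein. MYC-driven tumour cells are known to lean on this response.

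ATF4 and its C/EBP partners bind a composite element, the C/EBP-ATF response element, whose core was searched as TGATGNAA on both strands. RefSeq promoter windows (GRCm38.p6, 250 bases before to 50 after a start) matched all 10 genes. Windows of 5 genes hold the core, Atf3, Chac1, Trib3, Nupr1 and Asns, against 3.97% of all 32851 windows. The matches are shown because they mark which genes carry the letters of the response's own element near a start, and capitals mark the matched core in 30 bases read on the gene's strand:
Atf3: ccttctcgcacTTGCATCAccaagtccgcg
Chac1: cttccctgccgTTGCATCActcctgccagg
Nupr1: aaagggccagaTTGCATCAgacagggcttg
Trib3: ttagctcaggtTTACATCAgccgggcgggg
Asns: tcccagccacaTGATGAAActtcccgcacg

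Atf3, Chac1 and Nupr1 share the same 8 letters, on the opposite strand. The shown stretches lie at chr1:191183425-191183454 on the minus strand (Atf3, in an annotated intron), chr2:119351038-119351067 on the plus strand (Chac1, upstream), chr7:126625562-126625591 on the minus strand (Nupr1, inside an annotated exon), chr2:152344028-152344057 on the minus strand (Trib3, at the RefSeq start) and chr6:7693214-7693243 on the minus strand (Asns, inside an annotated exon). The match begins 110 bases before the RefSeq start in Atf3 and Nupr1, 193 before it in Chac1, 23 before it in Asns, and at base 15 after it in Trib3.

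The windows of Atf5, Atf4 and Ddit3, the genes contrasted below, held no such core, in either of the windows RefSeq gives for Atf5. Bases more than 250 before a start were not searched. Bases from 250 to 31 before a start are printed so that the absence can be read, with capitals at the only match of the motifs searched, an AP-1 element (TGANTCA) in Ddit3:
Atf5: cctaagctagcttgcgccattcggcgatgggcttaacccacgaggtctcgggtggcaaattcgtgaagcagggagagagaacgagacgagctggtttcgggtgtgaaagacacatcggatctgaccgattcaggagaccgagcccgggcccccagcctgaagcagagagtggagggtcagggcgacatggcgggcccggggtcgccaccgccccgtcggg
Atf4: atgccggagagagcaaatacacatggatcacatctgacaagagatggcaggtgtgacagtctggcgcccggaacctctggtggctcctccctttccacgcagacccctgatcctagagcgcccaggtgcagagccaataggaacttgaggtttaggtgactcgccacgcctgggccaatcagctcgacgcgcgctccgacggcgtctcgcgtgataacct
Ddit3: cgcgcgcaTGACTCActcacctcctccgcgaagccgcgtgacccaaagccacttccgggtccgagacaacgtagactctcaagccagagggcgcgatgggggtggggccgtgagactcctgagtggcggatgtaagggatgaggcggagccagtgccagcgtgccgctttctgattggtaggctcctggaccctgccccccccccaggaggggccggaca

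These stretches lie at chr7:44816689-44816908 on the minus strand, chr15:80254934-80255153 on the plus strand and chr10:127290543-127290762 on the plus strand. AP-1 elements stood in 7.81% of all windows. The palindrome CACGTG, the E-box that MYC and other factors bind, stood in 7.15% of them and, of the 10 genes, in the window of Nupr1. The endoplasmic reticulum stress element, CCAAT and CCACG at a fixed distance, was in no window of the 10 genes and in 0.119% of all. A missing match says only that these letters are not in these windows.

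All 10 genes had negative log2 fold changes (KD minus PLKO), with a median of -1.31, against -0.04 over all tested genes, 52.3% of which lay below 0. Values of -1 or less were found for 7 of the 10 genes and for 6.43% of tested genes. Atf5, Nupr1 and Cebpg passed the test over all genes (limma with a mean-variance trend, Benjamini-Hochberg adjusted p under 0.05) and fell, 3 of 10 genes, where 1.79% of the tested genes were called lower. The same 3 genes were those with no overlap between the groups, which was so, with KD below, for 18.8% of tested genes. Of the PLKO libraries, PLKO 3 was the lowest for 8 of the 10 genes and for 40.8% of tested genes. PLKO 2 was the highest for 5 of the 10 genes and for 41.9% of tested genes. Of the KD libraries, KD 3 was the lowest for 6 of the 10 genes and for 45.1% of tested genes. Libraries are left out below to show how far the calls rest on each, and none was judged faulty. Without PLKO 3, 8 of 10 genes were called lower (4.16% of tested genes), all but Atf4 and Asns. With the libraries of equal number taken as pairs (replicate block), 5 were called lower (11.1% of tested genes), the 3 above with Trib3 and Chac1. This pairing is assumed wherever the block is used, since the labels do not state it. Without both libraries numbered 3 the same 8 genes were called lower as without PLKO 3 alone, of a background of 16.0%, and without KD 3 the 3 genes were, of 9.39%. The 3 genes were also those called lower on log2(FPKM + 1), without the filter, after quantile normalization and with voom on recovered reads, where 2.13%, 1.54%, 1.73% and 1.15% of tested genes were. Without KD 1, KD 2, PLKO 1 or PLKO 2 limma called 0 of the 10770 genes, with 1818, 1793, 2217 and 2315 genes at an unadjusted p under 0.05. In these bulk libraries a lower share of cells that express a gene and less RNA per cell cannot be told apart.

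**Figure D1:**
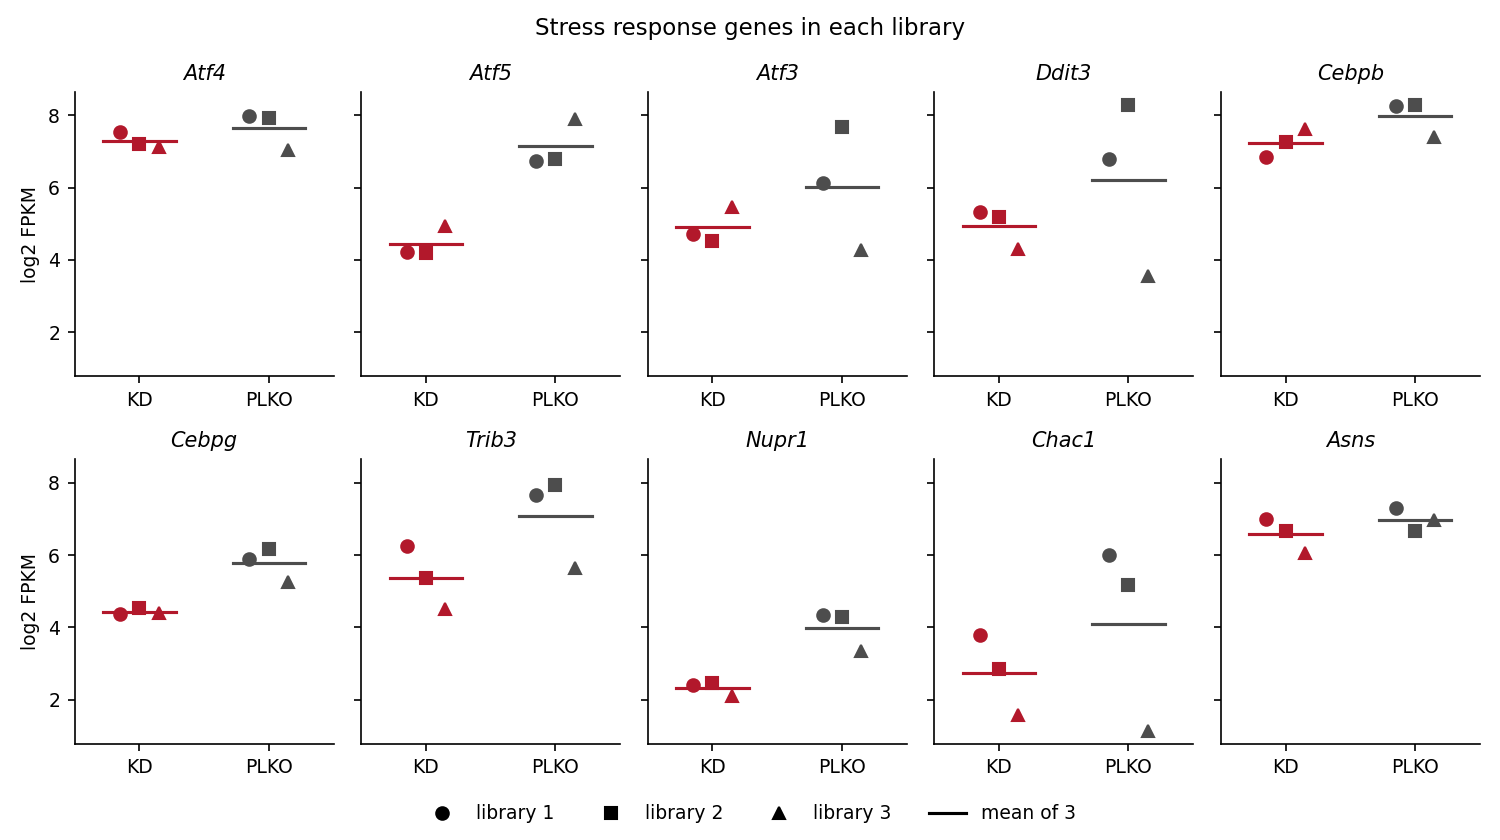
Log2 FPKM of the 10 genes in each KD (red, left) and PLKO (grey, right) library, with marker shapes for the library number and bars for the mean of 3. Atf5, Cebpg and Nupr1 are the genes whose groups do not overlap, and PLKO 3 (triangle) is the lowest PLKO value for 8 genes but the highest for Atf5.

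Atf4, the central factor of the response, had 185, 148 and 139 FPKM in KD 1, 2 and 3, against 255, 242 and 132 FPKM in PLKO 1, 2 and 3. PLKO 1 and PLKO 2 were above all KD libraries, and PLKO 3 was below them. Its log2 fold change was -0.37 (SE 0.28, 95% interval -1.001 to 0.266, limma adjusted p = 0.42). It was -0.67 without PLKO 3 (limma adjusted p = 0.091) and -0.20 without PLKO 1 (limma adjusted p = 0.73). Atf4 is at chr15:80255184-80257541 (GRCm38).

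Atf5, a paralogous factor that is also translated under stress and is linked to the mitochondrial unfolded protein response, had 18.5, 18.3 and 30.7 FPKM in KD, against 108, 111 and 238 FPKM in PLKO. Every KD library was below every PLKO library, and library 3 was the highest of both groups. Its log2 fold change was -2.70 (SE 0.35, 95% interval -3.48 to -1.92, limma adjusted p = 0.029), and it fell to 15.4% of the PLKO level. It had 567, 577 and 1071 reads in KD and 3883, 3703 and 7511 reads in PLKO. Leaving out PLKO 3 gave -2.33 (adjusted p = 0.0078). Without KD 1, KD 2, PLKO 1 or PLKO 2 the limma adjusted p was 0.12, 0.19, 0.098 and 0.087, and the fold change lay between -2.90 and -2.58.

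The gene spans chr7:44812256-44816658 (minus strand) and overlaps Nup62 and Il4i1 on the other strand. The shared exonic bases are 82 of its 1993 with either gene, and the use of strand in the counting is not given in the sources used here. Nup62, a nuclear pore protein, had 94.6, 77.2 and 48.0 FPKM in KD against 68.3, 58.5 and 41.1 FPKM in PLKO, with a log2 fold change of 0.37 (limma adjusted p = 0.45). Il4i1, an amino acid oxidase, had between 3 and 43 reads in KD and between 6 and 30 reads in PLKO, and was not tested.

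Atf3, which ATF4 switches on and which itself dampens or drives stress transcription, had 26.4, 23.0 and 44.3 FPKM in KD, against 69.3, 206 and 19.4 FPKM in PLKO. PLKO 2 was the highest and PLKO 3 the lowest of the 6 libraries. The log2 fold change was -1.12 (SE 0.71, 95% interval -2.72 to 0.48, limma adjusted p = 0.33). It was -1.99 without PLKO 3 (adjusted p = 0.036) and -0.29 without PLKO 2 (adjusted p = 0.76).

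Ddit3, which encodes the death-linked factor CHOP, had 40.3, 36.5 and 19.9 FPKM in KD, against 110, 312 and 11.8 FPKM in PLKO. Both extremes of the 6 libraries were control libraries, PLKO 2 with 8920 reads and PLKO 3 with 319 reads. The log2 fold change was -1.27 (SE 0.97, 95% interval -3.46 to 0.93, limma adjusted p = 0.42), -2.59 without PLKO 3 (adjusted p = 0.020) and -0.23 without PLKO 2 (adjusted p = 0.89). Ddit3 (chromosome 10, 127290774 to 127296288) shares 68 of its 1713 exonic bases with Mars, a tRNA synthetase gene on the other strand that had 41.9, 38.5 and 19.8 FPKM in KD against 66.8, 62.6 and 53.0 FPKM in PLKO. Without strand, reads in the shared bases of such a pair cannot be told apart. The annotation holds 2 gene entries named Ddit3, and overlap between them was not looked at.

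The C/EBP genes encode the partners with which ATF4 dimerises. Cebpg, a short factor that pairs with ATF4 at amino acid genes, had 20.6, 23.0 and 21.1 FPKM in KD, against 59.7, 71.6 and 38.0 FPKM in PLKO. The KD values were nearly equal and all lay below PLKO 3, the lowest control. Its log2 fold change was -1.34 (SE 0.26, limma adjusted p = 0.039), with adjusted p from 0.13 to 0.19 when KD 1, KD 2, PLKO 1 or PLKO 2 was left out. Cebpb, a factor of liver acute phase and stress genes, had 116, 152 and 195 FPKM in KD, against 309, 313 and 170 FPKM in PLKO. KD 3 was above PLKO 3, so the groups overlapped. The log2 fold change of Cebpb was -0.75 (SE 0.30, limma adjusted p = 0.15). It was -1.04 without PLKO 3 (limma adjusted p = 0.046) and -0.56 without KD 1 (limma adjusted p = 0.41). Of its exonic bases 20.7% are shared with Tmem189 (312 of 1504), on the other strand, which averaged 26.6 ± 2.97 FPKM in KD and 19.6 ± 2.14 FPKM in PLKO (SD, n = 3 each) and whose log2 fold change was 0.44 (limma adjusted p = 0.18).

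Nupr1, a small chromatin protein that stress induces, was the least expressed of the 10 genes in each group by the mean log2 level, with 5.32, 5.50 and 4.26 FPKM in KD, against 20.4, 19.6 and 10.1 FPKM in PLKO. The groups did not overlap, and library 3 was the lowest of both. Its log2 fold change was -1.67 (SE 0.30, limma adjusted p = 0.037). Leaving out KD 1, KD 2, PLKO 1 or PLKO 2 gave adjusted p from 0.13 to 0.19.

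Trib3, a pseudokinase that ATF4 and CHOP induce and that feeds back on them, had 75.8, 41.3 and 22.9 FPKM in KD, against 201, 244 and 49.5 FPKM in PLKO. PLKO 3 lay between KD 1 and KD 2, while each KD library was below the PLKO library of its number. The log2 fold change was -1.70 (SE 0.61, limma adjusted p = 0.12), called with the replicate block (adjusted p = 0.0034) and without PLKO 3 (-2.42, adjusted p = 0.021). Without PLKO 2 it was -1.26 (limma adjusted p = 0.30). Chac1, an enzyme that degrades glutathione, had 13.7, 7.25 and 3.00 FPKM in KD, against 64.3, 35.9 and 2.20 FPKM in PLKO. PLKO 3 was the lowest of the 6 libraries, on 55 reads. The log2 fold change was -1.36 (SE 1.11, limma adjusted p = 0.45), called with the replicate block (adjusted p = 0.038), -2.85 without PLKO 3 (adjusted p = 0.026) and -0.41 without PLKO 1 (adjusted p = 0.85).

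Asns, asparagine synthetase and a standard ATF4 target, had 129, 103 and 66.9 FPKM in KD, against 157, 101 and 126 FPKM in PLKO. KD 1 and KD 2 lay within the range of PLKO, and KD 3 was below it. The log2 fold change was -0.39 (SE 0.28, 95% interval -1.03 to 0.25, limma adjusted p = 0.39), between -0.60 and -0.13 with any 1 library left out.

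Ordered by mean log2 level in KD, the genes ran Atf4, Cebpb, Asns, Trib3, Ddit3, Atf3, Atf5, Cebpg, Chac1 and Nupr1. In PLKO they ran Cebpb, Atf4, Atf5, Trib3, Asns, Ddit3, Atf3, Cebpg, Chac1 and Nupr1. Neighbours in these orders overlapped in their 3 values, except Cebpg above Chac1 in KD. Atf5 stood at rank 3 in PLKO and at rank 7 in KD, on FPKM, which are scaled by gene length.

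Within a library, Atf5 was set against Atf4. The FPKM of Atf5 over that of Atf4 was 0.0996, 0.124 and 0.221 in KD 1, 2 and 3, against 0.422, 0.459 and 1.80 in PLKO 1, 2 and 3. The groups did not overlap, and in PLKO 3 alone Atf5 exceeded Atf4. As differences in log2 FPKM, the means were -2.84 ± 0.59 in KD and -0.51 ± 1.18 in PLKO (SD, n = 3 each). KD minus PLKO was -2.33 (SE 0.76), and between -2.70 and -1.66 with any 1 library left out. Between libraries of equal number it was -2.08, -1.89 and -3.03. Atf5 was thus lower relative to Atf4 in each KD library than in any PLKO library, a difference given without a test because it was one of the reasons for choosing these genes.

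The FPKM of Atf5 over that of Ddit3 was 0.458, 0.503 and 1.55 in KD, against 0.976, 0.357 and 20.1 in PLKO. The groups overlapped, and the PLKO 3 ratio was the highest. In log2 FPKM the difference averaged -0.50 ± 0.98 in KD and 0.94 ± 3.03 in PLKO (SD, n = 3 each), and KD minus PLKO was -1.43 (SE 1.84). Without PLKO 3 it was 0.26, so the direction of this contrast turned with that library.

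**Figure D2:**
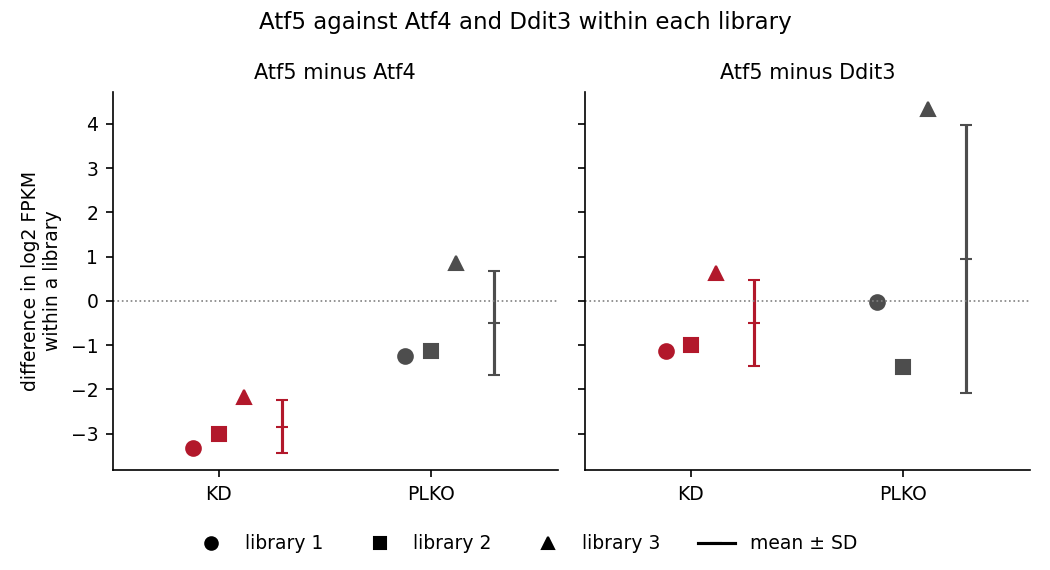
Log2 FPKM of Atf5 minus that of Atf4 (left panel) and of Ddit3 (right panel) in each KD and PLKO library, with the mean and SD of 3 beside the points. The KD and PLKO libraries do not overlap against Atf4, and overlap against Ddit3, where PLKO 3 is at 4.33.

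Library 3 differed from libraries 1 and 2 in opposite ways for different genes. In PLKO, library 3 minus the mean of 1 and 2 was -4.45 for Chac1, -3.97 for Ddit3, -2.62 for Atf3 and -2.16 for Trib3 in log2 FPKM, and 1.12 for Atf5. In KD it was -1.74 for Chac1, -0.95 for Ddit3 and -1.29 for Trib3, but 0.85 for Atf3 and 0.74 for Atf5. Chac1, Ddit3 and Trib3 were thus low, and Atf5 high, in library 3 of both groups, whereas Atf3 was high in KD 3 and low in PLKO 3.

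Differences between libraries of equal number also varied by gene. KD 3 minus PLKO 3 was above 0 for Atf3 (1.19), Ddit3 (0.75), Chac1 (0.45), Cebpb (0.20) and Atf4 (0.07), and below it for Asns (-0.91), Cebpg (-0.85), Trib3 (-1.11), Nupr1 (-1.24) and Atf5 (-2.96). Atf5, Cebpg, Trib3 and Nupr1 were lower in KD at all 3 numbers, as were 29.9% of tested genes. For Atf5 the 3 differences were -2.54, -2.60 and -2.96, and for Atf3 they were -1.39, -3.16 and 1.19.

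**Figure D3:**
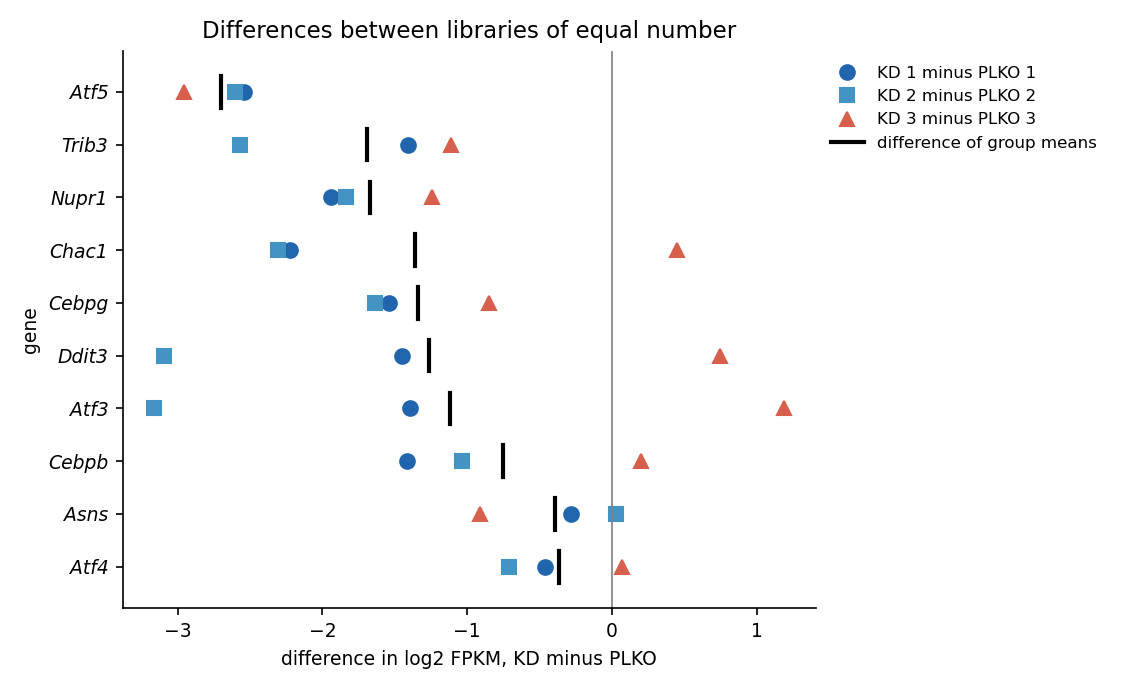
Log2 FPKM of each KD library minus the PLKO library of the same number for the 10 genes, with the difference of group means as a black bar. Atf5 is between -2.96 and -2.54 at each number, while the triangles (number 3) of Atf3, Ddit3, Chac1, Cebpb and Atf4 lie above 0.

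Several of the 10 genes varied more among the control libraries than nearly all others. The spread is given as a description, without a test. The SD of log2 FPKM over PLKO libraries was 2.60 for Chac1, 2.41 for Ddit3, 1.70 for Atf3 and 1.26 for Trib3, with a median of 0.30 over all tested genes. Of the 10770 tested genes, 8 had a larger PLKO spread than Chac1, 13 than Ddit3, 70 than Atf3 and 195 than Trib3. In KD the SDs were 1.10 for Chac1, 0.55 for Ddit3, 0.50 for Atf3 and 0.87 for Trib3, with a median of 0.29 over all tested genes. A larger KD spread was found for 154 tested genes than for Chac1, and for 397 than for Trib3. For Ddit3 and Atf3 it was 1740 and 2210 genes. Cebpg lay at the other end in KD, with an SD of 0.09 and 92.6% of tested genes above it. The highest PLKO value was 29.3 times the lowest for Chac1 and 26.3 times for Ddit3, and the same ratio in KD was 4.59 and 2.03.

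**Figure D4:**
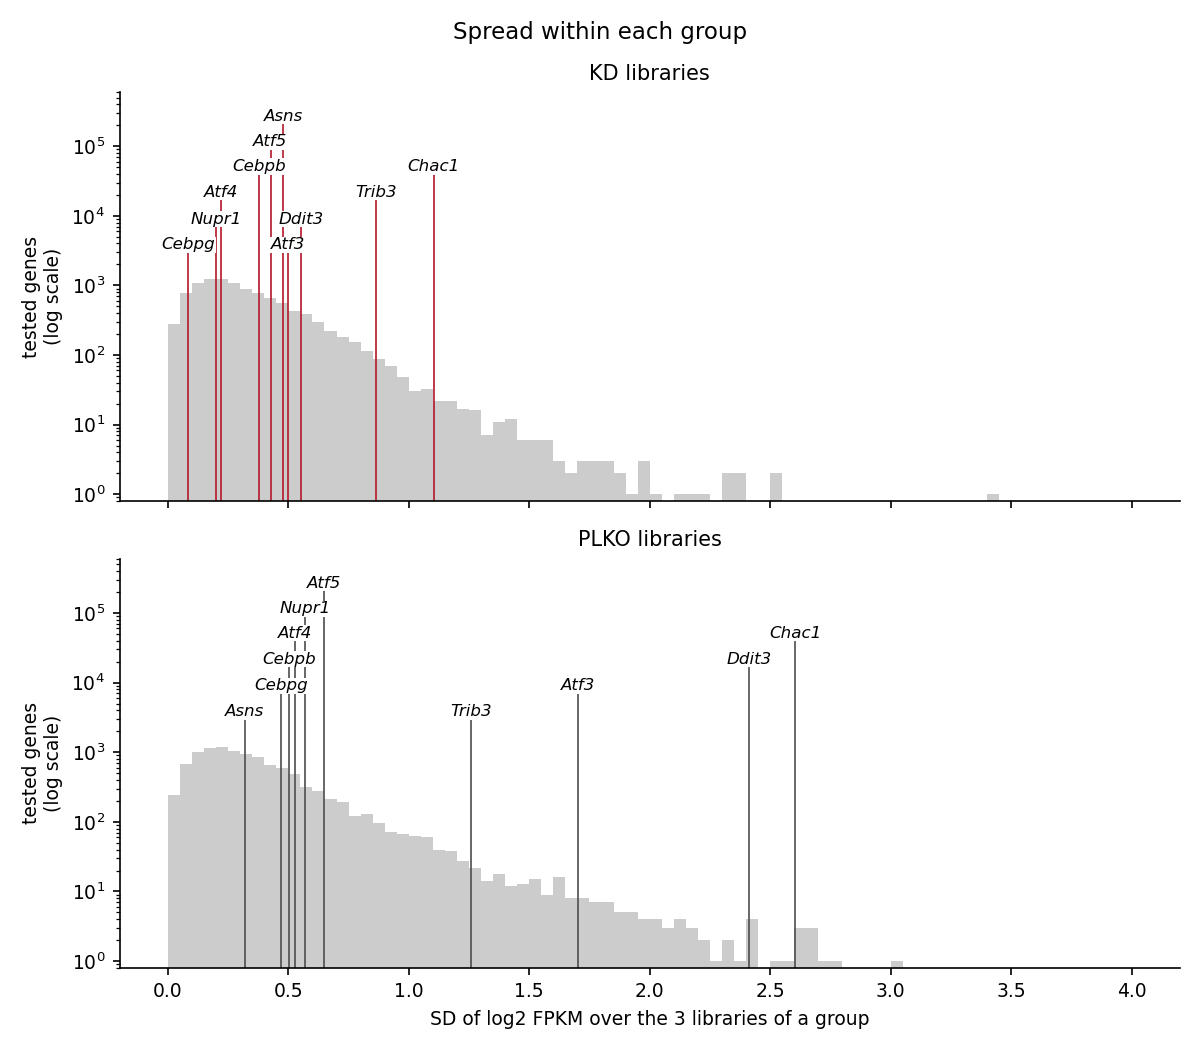
Number of tested genes (grey, log axis) by the SD of their log2 FPKM over the 3 KD (top) or 3 PLKO (bottom) libraries, with lines for the 10 genes, whose heights only separate the names. Chac1, Ddit3, Atf3 and Trib3 have PLKO SDs from 1.26 to 2.60, in the tail of the distribution.

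Other genes of the pathway were taken from 8 lists written with earlier results known, which hold 116 genes, 107 of them tested. Of these 107, 19 were called lower and 0 higher by limma at an adjusted p under 0.05, and 85 had a log2 fold change below 0. Over all tested genes 1.79% were called lower and 52.3% were below 0. With the replicate block 46 were called lower and 4 higher, where 11.1% of all tested genes were called lower, and without KD 1, KD 2, PLKO 1 or PLKO 2 none was, as for all genes. Called higher were 121 of all 10770 tested genes, and 882 with the block. These counts and the shares of 1.79%, and 11.1% with the block, hold beside each list that follows. Groups without overlap and with KD below were found for 18.8% of tested genes, and the share with KD above is not given here. Eif2b3, Eif2ak1, Eif2ak3, Creb5, Xbp1, Crebzf, Clpx and Spg7, named below although not called without the block, were chosen after their values were seen. The amino acid synthesis enzymes had a median log2 fold change of -1.34 over 11 tested genes, 6 of which fell. Gpt2, the mitochondrial alanine transaminase, had 13.9, 11.5 and 17.8 FPKM in KD against 84.3, 64.4 and 57.0 FPKM in PLKO. Aldh18a1, which starts proline synthesis, had 24.8, 22.9 and 27.7 FPKM in KD against 91.9, 128 and 76.1 FPKM in PLKO. Psph, the last enzyme of serine synthesis, had 10.1, 8.12 and 5.62 FPKM in KD against 24.6, 24.5 and 14.7 FPKM in PLKO. In each of the 3 genes the groups were apart. Aldh1l2, Pycr1 and Shmt2 were the other called members, with log2 fold changes of -2.50, -2.19 and -1.34, and the limma adjusted p of the 6 genes ran from 0.014 (Gpt2) to 0.045 (Psph).

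The 13 genes of cytosolic tRNA charging, a list that includes the tRNA exporter Xpot, all had negative values, with a median of -1.04, and 6 fell. Lars, the leucyl-tRNA synthetase, had 27.6, 27.9 and 37.3 FPKM in KD against 108, 110 and 93.1 FPKM in PLKO, a log2 fold change of -1.76 (limma adjusted p = 0.022). Cars was at -1.34, Iars at -1.15, Sars at -1.10 and Xpot at -1.04 in log2 fold change, and Eprs averaged 18.7 ± 1.12 FPKM in KD and 37.3 ± 2.16 FPKM in PLKO (SD, n = 3 each, limma adjusted p = 0.038). With the replicate block 12 of 13 were called lower, against 11.1% of all tested genes. The median SD of log2 FPKM in this list was 0.38 in KD and 0.18 in PLKO, where all tested genes had medians of 0.29 in KD and 0.30 in PLKO.

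Amino acid transporters had a median of -0.79 over 9 tested genes, and 2 fell. Slc7a5, the leucine carrier, had 47.0, 41.3 and 60.2 FPKM in KD against 224, 177 and 227 FPKM in PLKO. Slc6a9, a glycine transporter, had 6.43, 6.65 and 5.97 FPKM in KD against 24.1, 19.1 and 14.6 FPKM in PLKO (log2 fold change -1.57, limma adjusted p = 0.030). None of 14 other ATF4 and CHOP targets was called by limma at an adjusted p under 0.05, and 5 were called lower with the replicate block (11.1% of all tested genes). The closest, Eif4ebp1, an inhibitor of translation, had 52.8, 61.8 and 57.0 FPKM in KD against 133, 140 and 86.2 FPKM in PLKO (limma adjusted p = 0.0503). Stc2 was at -1.20 and Ddit4 at -1.28 (limma adjusted p = 0.057 and 0.063).

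Upstream of ATF4, 1 of 16 genes fell in a list of eIF2alpha kinases, phosphatase and eIF2B, which reaches beyond these classes. Over all tested genes 1.79% were called lower. The replicate block called 4 genes of the list lower and 1 higher. The gene that fell was Oma1, the mitochondrial protease that starts the signal to the kinase HRI, and itself outside these classes. It had 1.84 to 2.74 FPKM in KD against 4.41 to 6.42 FPKM in PLKO (log2 fold change -1.39, limma adjusted p = 0.044). Eif2b3, a subunit of the exchange factor eIF2B, had 3.72, 3.81 and 3.35 FPKM in KD against 7.92, 15.9 and 6.36 FPKM in PLKO, a log2 fold change of -1.36 (limma adjusted p = 0.060, and 0.0067 with the block). Eif2ak1, which encodes HRI, had 1.93, 3.16 and 5.49 FPKM in KD against 6.68, 7.44 and 7.76 FPKM in PLKO, a log2 fold change of -1.18 (limma adjusted p = 0.086, and 0.014 with the block). In both genes all KD libraries lay below all PLKO libraries, as in 18.8% of tested genes. Eif2ak3, which encodes the kinase PERK, had 12.4, 11.9 and 10.8 FPKM in KD against 6.57, 6.89 and 7.35 FPKM in PLKO, a log2 fold change of 0.75 (limma adjusted p = 0.063). The groups of Eif2ak3 did not overlap, with KD above. It was called higher with the replicate block (limma adjusted p = 0.032), as were 882 of all 10770 tested genes. Among 18 genes of a list of ATF/CREB and C/EBP relatives, which reaches beyond these families, 1 fell. It was Nfe2l1, a factor that renews proteasomes and is itself outside these families, at -1.18 (limma adjusted p = 0.044). The replicate block called 4 genes of the list lower and 2 higher. Creb5 averaged 2.35 ± 0.56 FPKM in KD and 0.69 ± 0.35 FPKM in PLKO (SD, n = 3 each) without overlap, a log2 fold change of 1.89 (limma adjusted p = 0.062, and 0.0084 with the block). Xbp1, a factor of the unfolded protein response, was at -1.04 (limma adjusted p = 0.091, with the block 0.018). Crebzf was at 0.70 (limma adjusted p = 0.13, with the block 0.047).

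Of 12 genes of the mitochondrial stress response, the programme ATF5 is linked to, 1 fell, Htra2, a protease between the mitochondrial membranes, at -1.13 (limma adjusted p = 0.040). The replicate block called 2 lower and 1 higher. The other genes it called were Clpx, a subunit of a matrix protease, with 10.1, 10.9 and 14.3 FPKM in KD against 17.6 to 24.8 FPKM in PLKO (log2 fold change -0.82, limma adjusted p = 0.031 with the block), and Spg7, a protease of the inner membrane, with 30.7, 35.1 and 26.2 FPKM in KD against 22.3, 13.8 and 19.2 FPKM in PLKO (0.75, limma adjusted p = 0.045 with the block). Without the block their limma adjusted p was 0.071 and 0.091. Of 14 chaperones and degradation factors of the endoplasmic reticulum 2 fell, Pdia4 and Sdf2l1, at -1.22 and -1.47 (limma adjusted p = 0.038 and 0.049).

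**Figure D5:**
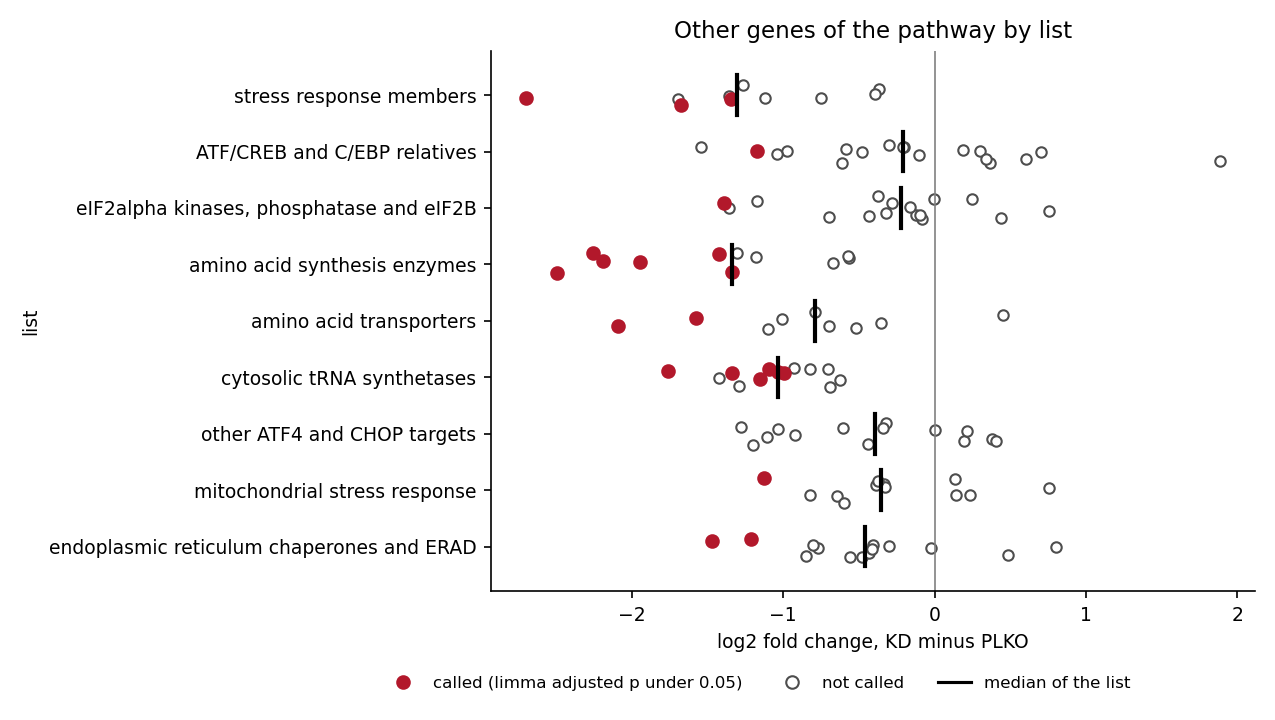
Log2 fold change (KD minus PLKO) of each tested gene in the stress response set and in the 8 pathway lists, with called genes in red and the list median as a black bar. Amino acid synthesis enzymes and tRNA synthetases have medians of -1.34 and -1.04, and the eIF2alpha list has -0.22.

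Likeness of profile was measured as the root-mean-square difference between log2 FPKM profiles over the 6 libraries, each centred on its own mean. The measure includes the difference between the groups. Outside the 10 genes, the profiles nearest to Atf5 were those of Slc7a5 (0.46), Boc (0.47) and Nxph4 (0.48), with log2 fold changes of -2.09, -1.82 and -2.28. In PLKO 1, 2 and 3 Boc had 10.1, 10.1 and 16.6 FPKM, and so shared the high PLKO 3 value of Atf5. Slc7a5 (224, 177 and 227 FPKM) and Nxph4 (10.1, 12.7 and 11.1 FPKM) did not. Nearest to Ddit3 were Itgb7 (0.39), Jrk (0.44) and Gadd45a (0.49). Gadd45a, a growth arrest gene, had 38.7, 27.8 and 8.24 FPKM in KD against 68.6, 111 and 7.05 FPKM in PLKO, and so shared the low PLKO 3 value of Ddit3. Nearest to Atf4 were Cep295 (0.08), Vegfa (0.09) and Zbed3 (0.09). Among the 10 genes the closest pair was Cebpg with Nupr1 (0.23), and the most distant was Atf5 with Chac1 (2.17). Atf5 differed from Atf4 by 1.39 and from Ddit3 by 1.97, while Ddit3 differed from Atf3 by 0.75.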

How the data were processed

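Polyadenylated RNA of 3 KD and 3 PLKO libraries was measured by RNA-seq. The authors deposited 1 table of log2 FPKM per gene and library, a unit read from its values, which run from -7.85 to 13.17. Per the submitters' processing notes FastQC 0.11.7 was used, with build GRCm38. The aligner, counter, strand use and gene filter were not given in the sources used here. Values of 21 genes share floors between libraries, which gave a prior of 2.0 reads on average, and whole reads (tolerance 0.01) were recovered for 100% of genes and are given as depth.

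The values were tested as deposited with limma 3.58.1 (R 4.3.3, trend, group alone, 4 residual degrees of freedom) after leaving out genes whose FPKM averaged below 1, which kept 10770. The call threshold was a Benjamini-Hochberg adjusted p of 0.05, and the fit was run on simulated data. The simulated noise was independent between genes and libraries, so that run does not cover library effects shared by genes. The prior understates fold changes of genes with few reads. Count tests were not run because the deposited unit is log2 FPKM, and voom on recovered reads was added after the data were seen. Deviations of libraries numbered 1, 2 and 3 from their group means had correlations across genes of 0.18, 0.29 and 0.50, all over 0.1, so a fit with the number as a block was run on an assumed pairing. PLKO 1 with KD 2 and PLKO 2 with KD 1 had 0.27 and 0.30, so the correlations do not single out equal numbers for libraries 1 and 2.

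The 10 genes, the lists and the rule for naming genes (the 10 genes, Sf3b3, overlapping genes, called or lowest-p list members, and 3 nearest profiles) were chosen with earlier results of these data known. Some genes under that rule are only counted. Coordinates are 1-based on GRCm38 (GENCODE M21), and promoter sequences are from RefSeq (GRCm38.p6).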

Additional observations from a re-analysis of the deposited data

How the results depend on the processing

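The 10 genes kept negative log2 fold changes in all 12 alternatives run for each, 120 values between -2.95 and -0.13. In 96 of these the call was as reported, in 12 a gene was newly called and in 12 a call was lost, namely those of Atf5, Cebpg and Nupr1 without KD 1, KD 2, PLKO 1 or PLKO 2. With the replicate block 2080 genes were called, 5 of the 10 genes and 50 list members, and without both libraries numbered 3 it was 3009, 8 and 48. With 1 library left out, calls ran from 0 to 1744 genes, from 0 to 8 of the 10 genes and from 0 to 31 list members. Log2(FPKM + 1), no filter, quantile normalization and voom on recovered reads called 220 to 369 genes, and each called 3 of the 10 genes and 17 to 20 list members. The contrast of Atf5 with Atf4 ran from -2.70 to -1.66 with 1 library left out, and its paired mean (block by number) was -2.33. The contrast with Ddit3 ran from -2.65 to 0.26, reversed without PLKO 3 (0.26), and was -0.30 without both libraries numbered 3. The cause of these changes was not tested. The edgeR and DESeq2 fits planned were not run. With 3 libraries a group, an exact permutation test cannot go below 0.10, and depth limits Chac1 most, with 55 reads in PLKO 3.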

Other observations

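The window of Nupr1 holds both the core of the C/EBP-ATF response element and an E-box. Of the 10 genes it alone has more than 1 of the motifs searched in its window. The E-box lies at chr7:126625678-126625707 on the minus strand within gcgagagctttcCACGTGgaaaaacacagc, where capitals mark it, and begins 225 bases before the RefSeq start. The 5 genes with the response element's core in their windows were Atf3, Chac1, Trib3, Nupr1 and Asns. Their log2 fold changes ran from -1.70 (Trib3) to -0.39 (Asns). Among them Nupr1 alone was called without the block (1.79% of tested genes were called lower). The replicate block also called Trib3 and Chac1 (11.1%), and without PLKO 3 Atf3, Trib3 and Chac1 were called as well as Nupr1 (4.16%). Of the genes without the core there, Atf5 and Cebpg were called with and without the block. Without PLKO 3 Atf5, Ddit3, Cebpb and Cebpg were called. A link between the core and the fall was not tested.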
